A study of Mus musculus with 8 samples.

Results

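Zinc finger genes make up the largest group of transcription factors in mammals. In a list of 1428 genes with an unadjusted p below 0.05 between 2 kinds of mouse colon tumour, 14 carried symbols of this family. They were taken by name: protein-coding genes whose symbols begin with Zfp, Zbtb, Zscan, Zkscan, Znf or Zik, among 1097 protein-coding genes in that list. RNA sequencing was done on colon tumours from wild-type mice (WT, 4 libraries) and from mice labelled miR-29ab1Vilin-KO (KO, 4 libraries), in which the microRNA locus miR-29ab1 was disrupted conditionally in the epithelium of the intestine. All mice were of the C57BL/6N strain, and in the study's design tumours arise after the carcinogen azoxymethane and after dextran sodium sulfate, an irritant of the colon lining. No source used here gives the age, sex or number of animals, or whether WT mice carried the unrecombined allele. The deletion is directed at epithelium, so the other cells of a tumour would keep the microRNA, and the table has no row for miR-29 itself with which to check the labels.

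A classical zinc finger is a short loop of protein in which a pair of cysteines and a pair of histidines (C2H2) hold a zinc ion, and arrays of such fingers read DNA. Many mouse members carry a KRAB domain, which recruits the corepressor Trim28 and heterochromatin proteins and is best known for silencing transposable elements. Other zinc fingers bind RNA: the CCCH type, with 3 cysteines and 1 histidine, directs decay of short-lived messenger RNAs. In the intestine, finger proteins of the Klf and Gata groups govern epithelial maturation, whereas the roles of most numbered Zfp genes there are little described.

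The coding sequences below show the first finger of 3 members, with the zinc-binding cysteine and histidine codons in capitals, because they separate the C2H2 type from the exception in the set. They were read from GENCODE M21 transcripts of build GRCm38, not from the annotation behind the table. The Zfp710 finger lies in exon 2, on the plus strand of chromosome 7, from 80081971 to 80082033. The Zik1 finger lies in exon 4, on the minus strand of chromosome 7, from 10490458 to 10490520. The Zfp36l2 finger lies in exon 2, on the minus strand of chromosome 17, from 84186668 to 84186727.
Zfp710 (C2H2): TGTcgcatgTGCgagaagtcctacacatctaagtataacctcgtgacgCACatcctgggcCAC
Zik1 (C2H2): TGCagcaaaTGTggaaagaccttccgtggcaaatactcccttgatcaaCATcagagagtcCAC
Zfp36l2 (CCCH): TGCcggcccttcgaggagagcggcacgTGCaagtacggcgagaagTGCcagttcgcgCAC

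By sequence, 13 of the 14 members carried the C2H2 finger pattern, which does not show that a protein binds DNA or acts as a transcription factor. The table's family column assigns 11 of the 14 to the C2H2 class. A search of the translated coding sequences for the C2H2 pattern found at least 2 fingers in those 13, and none in Zfp36l2, which has 2 CCCH fingers and is annotated in the table as an activator of messenger RNA decay. The pattern allowed 2 to 4 residues between the cysteines, 12 between cysteine and histidine and 3 to 5 between the histidines. The number of C2H2 fingers was 16 in Zfp612 and Zfp677, 13 in Zfp335, Zfp354b and Zfp882, 11 in Zfp710 and 10 in Zfp456. It was 9 in Zik1, 8 in Zfp13, 5 in Zfp369, 4 in Zfp618 and 2 in Zfp821 and Zfp831. The median of 9.5 fingers over the members stood beside a median of 9 over 469 annotated genes with the same name stems. A KRAB box is recorded in the table for 6 members, namely Zfp369, Zik1, Zfp354b, Zfp13, Zfp677 and Zfp612. KRAB was not sought by sequence, so other members may carry a box that is not recorded.

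The values are gene counts divided by a size factor for each library (normalized counts), and the authors' deposited table lists only genes whose unadjusted p is under 0.05. That selection applies to each member, so the differences below describe the listed genes and are not fresh evidence of a change. The list holds 1410 of the 19985 genes behind the authors' adjustment (7.06%), plus 18 whose adjusted p is set to 1. Of 470 protein-coding genes with these name stems in GENCODE M21, 14 (2.98%) were listed, against 1032 of 21924 annotated protein-coding genes (4.71%); how many of either were expressed is not analysed here. By stem, 13 of 397 Zfp genes and the single Zik gene were listed, and 0 of 41 Zbtb, 0 of 19 Zscan, 0 of 11 Zkscan and 0 of 1 Znf genes. The whole reads recovered from the listed genes came to 1202677 to 1268646 in the WT libraries and 1316787 to 2180787 in the KO libraries, sums over the list alone. Nothing in the labels ties a library to an animal of its own; p-values then reflect only how these libraries vary, and that variation may be technical.

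By the authors' deposited table, 10 of the 14 zinc finger genes were higher in KO tumours and 4 were lower. Those higher were Zfp710, Zfp618, Zfp36l2, Zfp335, Zik1, Zfp831, Zfp354b, Zfp677, Zfp612 and Zfp456, and those lower were Zfp369, Zfp821, Zfp882 and Zfp13. The share higher, 71.4%, stood beside 58.1% over all 1428 listed genes and 59.5% over the listed protein-coding genes. None of the 14 passed an adjusted p of 0.05 from DESeq2 in the authors' deposited table, where 8 listed genes did (0.56%); the members' adjusted p-values ran from 0.430 for Zfp710 to 0.708. A refit of the recovered reads with edgeR put 9 of the 14 below an unadjusted p of 0.05 (64.3%), against 77.9% of all listed genes, and limma put 9 there as well, against 71.9% of all listed genes. A DESeq2 refit put all 14 there, as it did 94.9% of all listed genes. No member passed an adjusted p of 0.05 in those 3 refits, where 37 listed genes did with DESeq2 and 0 with edgeR or limma.

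The RNA-decay factor Zfp36l2 was the most abundant member. Zfp36l2, which binds AU-rich elements in 3′ untranslated regions, had 3100, 2056, 2793 and 2197 normalized counts in WT replicates 1 to 4 and 4117, 3133, 3721 and 3413 in KO replicates 1 to 4. All KO libraries lay above all WT libraries, but the lowest KO value exceeded the highest WT value by 33.4, or 1.32% of the WT mean. The means were 2537 ± 493 in WT and 3596 ± 422 in KO (SD, n = 4 each), and in the authors' deposited table the log2 fold change is 0.50, with an unadjusted p of 0.0140 and an adjusted p of 0.625 from DESeq2. In the coordinates of the table, which carries C57BL/6NJ gene identifiers, Zfp36l2 lies on chromosome 17 from 90438623 to 90441565 on the minus strand.

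Zfp710, a C2H2 protein with no KRAB box recorded, had the smallest unadjusted p of the 14. Its WT libraries held 1156, 1064, 1179 and 752.7 normalized counts and its KO libraries 1509, 1379, 1594 and 1778, so no KO library came within 200.1 of a WT library. The means were 1038 ± 196 in WT and 1565 ± 167 in KO, a ratio of 1.51, and DESeq2 in the authors' deposited table puts the log2 fold change at 0.59 with an unadjusted p of 0.00427. The standard error of its log2 fold change in the DESeq2 refit was 0.19. Zfp710 lies on chromosome 7 from 85175189 to 85252767 on the plus strand of the table's annotation.

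Zfp618, whose human counterpart works with UHRF2 in the recognition of 5-hydroxymethylcytosine, had a ratio of 1.50 with almost no gap between the groups. Its values were 670.2, 589.7, 715.97 and 453.2 in WT replicates 1 to 4 and 1087, 716.93, 868.4 and 970.6 in KO replicates 1 to 4. KO replicate 2 and WT replicate 3 thus differed by 0.957 normalized counts. The means were 607 ± 115 in WT and 911 ± 157 in KO (SD, n = 4 each), and DESeq2 in the authors' deposited table puts the log2 fold change at 0.58 and the adjusted p at 0.597. Zfp618 lies on chromosome 4 from 64103625 to 64277260 on the plus strand.

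Zfp335, also known as NIF-1, is a partner of nuclear receptor coactivators. It had 373.5, 326.7, 461.1 and 353.1 normalized counts in WT and 545.7, 451.2, 503.6 and 527.4 in KO. WT replicate 3 lay above KO replicate 2, so the groups overlapped by that pair. The means were 378.6 ± 58.3 in WT and 507.0 ± 41.0 in KO, and DESeq2 in the authors' deposited table puts the log2 fold change at 0.42 and the adjusted p at 0.656.

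Zfp821 was the member with the tightest replicates and the smallest difference. Its WT libraries held 514.6, 530.1, 504.6 and 551.4 normalized counts and its KO libraries 442.5, 426.5, 426.2 and 399.2. All KO libraries lay below all WT libraries, with 62.1 normalized counts between the nearest pair. The means were 525.2 ± 20.4 in WT and 423.6 ± 18.0 in KO (SD, n = 4 each), and DESeq2 in the authors' deposited table puts the log2 fold change at -0.31 and the adjusted p at 0.656. Zfp821 lies on chromosome 8 from 116285172 to 116304349 on the plus strand.

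Of the 6 members with a KRAB box recorded in the table, 4 were higher and 2 lower in KO. Zik1, named for its binding to the RNA-binding protein hnRNP K, had 6.81, 0, 4.05 and 1.01 normalized counts in WT and 7.71, 3.21, 42.7 and 11.7 in KO. KO replicate 3 held most of the KO signal, and KO replicate 2 lay below 2 of the WT libraries. DESeq2 in the authors' deposited table puts its log2 fold change at 2.46, from 12 reads in WT and 71 in KO in all. The ratio of the KO to the WT mean was 5.51 with every library, 2.55 without KO replicate 3 and 9.70 without WT replicate 1.

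Zfp354b, known as Kid2, was the other member with very few reads, 11 in WT and 46 in KO. Its values were 3.89, 0, 6.07 and 1.01 in WT and 7.71, 6.43, 13.3 and 16.6 in KO. The groups did not overlap, although 0.362 normalized counts separated KO replicate 2 from WT replicate 3. The ratio of the group means was 4.02, and 6.75 without WT replicate 3.

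Zfp369, the neurotrophin receptor-interacting factor NRIF2, was the KRAB member with the smallest p among those lower. It had 196.5, 228.1, 154.7 and 376.4 normalized counts in WT and 128.2, 175.7, 139.7 and 85.1 in KO. WT replicate 4 stood high and KO replicate 4 low, while KO replicate 2 lay above WT replicate 3. The means were 238.9 ± 96.4 in WT and 132.2 ± 37.3 in KO, and DESeq2 in the authors' deposited table puts the log2 fold change at -0.85 and the adjusted p at 0.625.

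Zfp13, first named Krox-8, was lower in KO with overlapping groups. Its libraries held 160.5, 169.5, 82.9 and 222.6 normalized counts in WT and 142.7, 69.7, 90.8 and 47.0 in KO. WT replicate 3 lay below 2 of the KO libraries. DESeq2 in the authors' deposited table puts its log2 fold change at -0.86 and its adjusted p at 0.703.

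Zfp882, a C2H2 gene for which the table records no KRAB box, had the same size of difference at a lower level. It had 95.3, 49.3, 84.9 and 65.8 normalized counts in WT and 54.0, 26.8, 59.6 and 22.5 in KO. KO replicates 1 and 3 lay above WT replicate 2. The means were 73.8 ± 20.4 in WT and 40.7 ± 18.8 in KO, and DESeq2 in the authors' deposited table puts the log2 fold change at -0.86 and the adjusted p at 0.703.

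The remaining 4 members were higher in KO with overlapping groups. Zfp612 stood at 105.8 ± 27.4 normalized counts in WT and 152.3 ± 19.6 in KO, where the 124.3 of KO replicate 2 lay below the 137.7 of WT replicate 2. Zfp677 stood at 13.1 ± 8.60 in WT and 32.5 ± 21.6 in KO, and KO replicates 1 and 2, at 14.5 and 15.0, lay below WT replicate 2 at 25.7. Zfp456 stood at 28.0 ± 12.8 in WT and 50.6 ± 11.8 in KO, with KO replicate 1 at 34.7 below WT replicates 2 and 3. Zfp831 stood at 14.2 ± 8.94 in WT and 31.6 ± 8.54 in KO, with WT replicate 1 at 27.2 above KO replicates 1 and 3. Their log2 fold changes in the authors' deposited table were 0.53, 1.31, 0.85 and 1.15 in that order. Zfp677 and Zfp456 are named in the table after the related proteins Zfp54 and Zfp58, and no source used here says how reads matching several close copies were counted, so the values of these genes are uncertain.

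**Figure D1:**
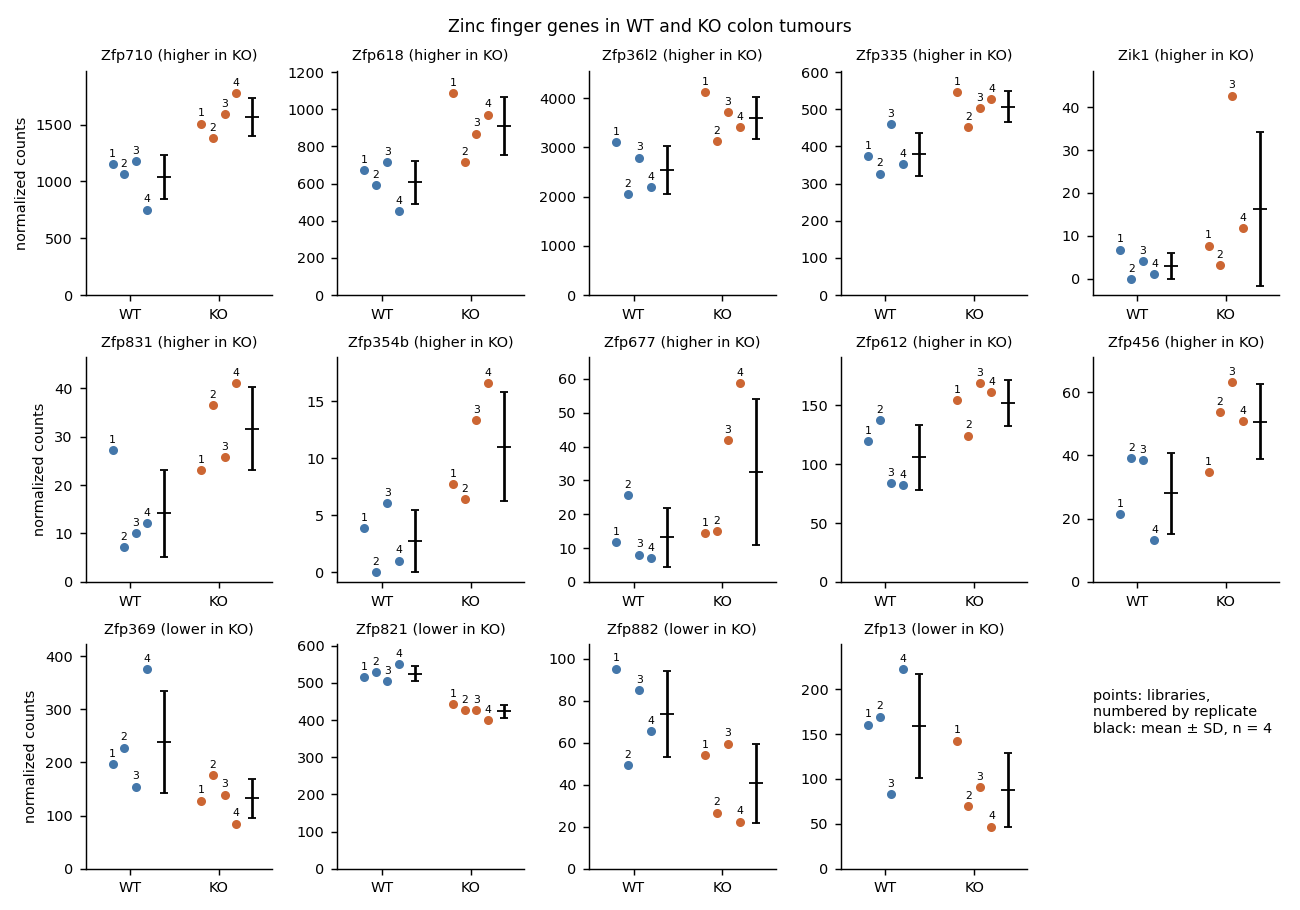
Normalized counts of the 14 zinc finger genes in each library, 1 panel per gene with its own vertical axis; points are libraries numbered by replicate and black bars are the mean ± SD over 4 libraries. The groups do not touch in Zfp710, Zfp618, Zfp36l2, Zfp354b and Zfp821 and overlap in the other 9.

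In 5 of the 14 members (35.7%) no KO value fell among the WT values, against 44.7% of all listed genes. KO was the higher group in 4 of them, where 23.9% of listed genes had KO wholly above, and the lower group in 1, where 20.7% had KO wholly below. The count was 2 with TMM scaling (Zfp710 and Zfp821) and 3 with median-of-ratios scaling of the listed genes, both of which lower the KO libraries relative to WT. It ran from 5 to 9 when single libraries were left out, with 9 without KO replicate 2, 8 without WT replicate 2 or WT replicate 3 and 5 without KO replicate 4. Leaving out a library cannot undo a separation, so the count could not fall below 5 and does not check it. The share of all listed genes under these settings was not computed.

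KO replicate 4 was the extreme library of the set in several genes, as it is in the list as a whole. It lay above every WT library in all 10 members that were higher and below every WT library in all 4 that were lower. Among the KO libraries it was highest in 4 of those 10 and lowest in all 4 of the others. KO replicate 2 was the lowest KO library in 7 of the 10. The median ratio to the WT mean over the 10 higher members was 1.54, 1.21, 1.71 and 1.76 in KO replicates 1 to 4, and over the 4 lower members it was 0.787, 0.587, 0.696 and 0.331. Over all genes listed higher the same ratio was 1.40 to 1.50 in KO replicates 1 to 3 and 2.85 in KO replicate 4, so the higher members, at 1.76, lay closer to WT there. Over all genes listed lower it was 0.434 in KO replicate 4, and the lower members, at 0.331, lay further from WT than that. Neither difference from the list was tested. When KO replicate 4 was left out, the ratio of KO to WT means was 1.44 for Zfp710 and for Zfp36l2, 0.619 for Zfp369 and 0.636 for Zfp13.

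WT replicate 4 leaned the opposite way. It was the lowest WT library in 5 of the 10 higher members, as WT replicate 2 also was in 5, and the highest in 3 of the 4 lower ones. The median ratio of WT replicate 4 to the WT mean was 0.736 over the higher members and 1.23 over the lower ones. Over all genes listed higher and lower it was 0.853 and 1.14, so the list leaned the same way. Without WT replicate 4 the edgeR refit left 3 members below an unadjusted p of 0.05, namely Zfp710, Zfp618 and Zfp36l2, and 45.0% of all listed genes. Without KO replicate 4 it left 6 members and 51.9% of all listed genes.

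**Figure D2:**
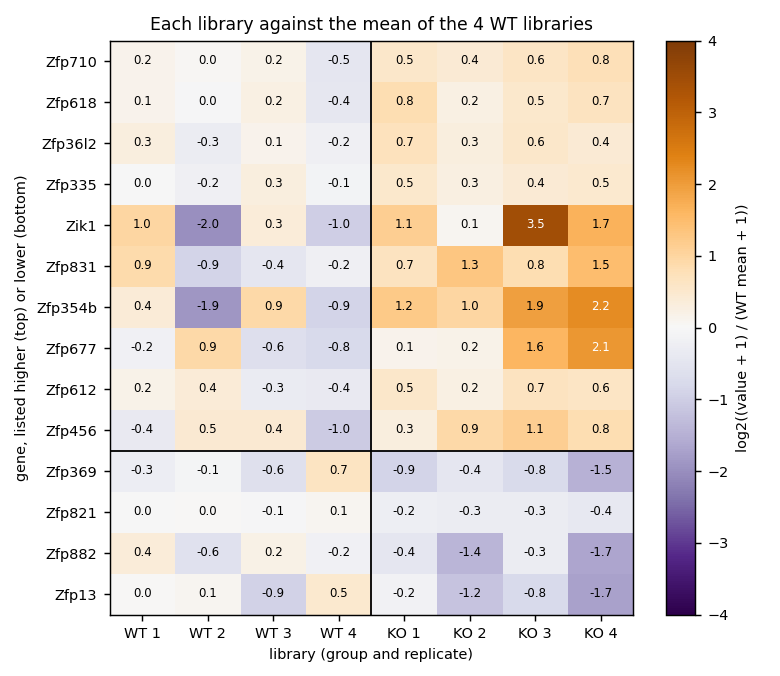
Heat map of log2((value + 1) / (WT mean + 1)) for each zinc finger gene (rows) and library (columns); orange is above and purple below the mean of the 4 WT libraries. KO 4 is orange in all 10 upper rows and purple in all 4 lower rows, and the Zik1 signal is concentrated in KO 3.

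Some markers of other cells were also listed. The sums below cover listed genes alone, which were selected at an unadjusted p below 0.05. A gap between WT and KO in these sums is built in by that selection and does not measure a cell type. Of all genes behind the authors' adjustment 7.06% were listed, and 58.1% of all listed genes were higher in KO. Of 20 B and plasma cell genes 14 were listed, all higher in KO, with summed normalized counts of 162.3 to 393.6 in WT and of 286.3, 1273, 473.4 and 4125 in KO replicates 1 to 4. Of 10 colonocyte genes 3 were listed, all higher, with sums of 10265 to 12493 in WT and 12971 to 38530 in KO, the highest in KO replicate 4. Of 12 T cell genes 3 were listed, all higher, with sums of 59.3 to 78.1 in WT and 127.3 to 159.5 in KO. Of 7 proliferation genes 2 were listed, both lower, with sums of 4888 to 7194 in WT and 3768 to 5505 in KO. Of 8 mast cell genes 2 were listed, both lower, and of 8 enteroendocrine and tuft cell genes 4, of 11 fibroblast and smooth muscle genes 3 and of 9 immediate-early genes 2 were listed, all higher. None of 8 myeloid genes was listed, and the defining epithelial genes Epcam and Vil1 are not among the listed genes, so the labelled tissue could be checked only in part. The part of these cells in the zinc finger values was not tested, and in bulk tumour RNA fewer cells of a type and less RNA per cell cannot be told apart. KO replicate 4, with the highest B cell sum, held the top KO value in 4 of the 10 higher members and the bottom one in all 4 lower members. KO replicate 2, with the next highest B cell sum, held the top KO value in 0 of the 10 higher members and the bottom one in 7. KO replicates 1 and 3 held the top value in 3 each. Whether these ranks go with the B cell sums was not tested.

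Fold change was smaller among the abundant zinc finger genes than among the sparse ones, as over the whole list. The 5 members with a mean of at least 300 normalized counts (Zfp36l2, Zfp710, Zfp618, Zfp821 and Zfp335) had absolute log2 fold changes from 0.31 to 0.59 in the authors' deposited table, and 4 of the 5 had separate groups, against 54.0% of all listed genes at that level. The 9 members below that level had values from 0.53 to 2.46, and 1 of the 9 had separate groups, against 37.8% of all listed genes below it. The medians were 0.50 and 0.86, against 0.55 and 1.50 over all listed genes on the same sides of that level. The selection at p below 0.05 shapes this pattern, because a sparse gene with a small difference would not be listed.

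**Figure D3:**
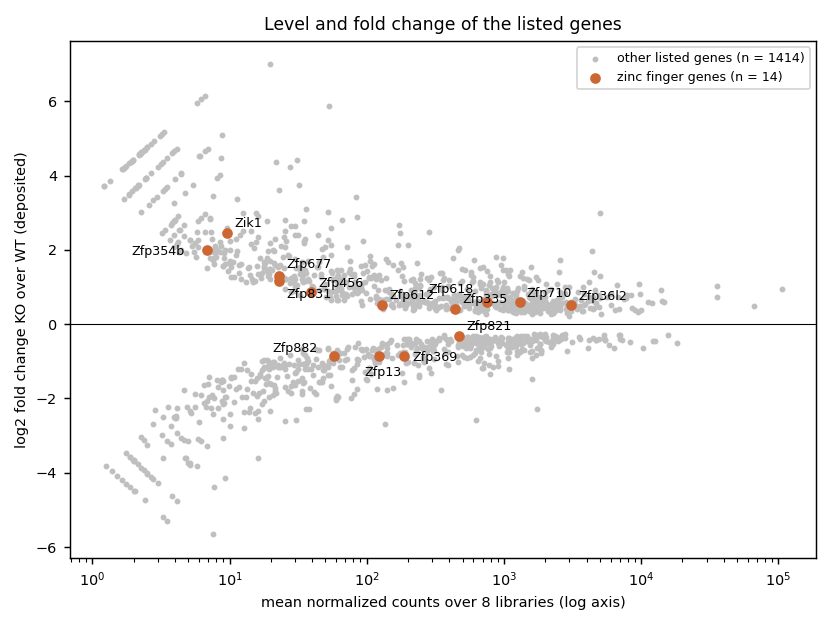
Deposited log2 fold change of KO over WT against the mean normalized count over 8 libraries (log axis) for 1414 other listed genes (grey) and 14 zinc finger genes (orange). The gap around 0 is the selection at an unadjusted p below 0.05; Zik1 and Zfp354b sit at the sparse, large-fold end and Zfp36l2 at the abundant end.

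Levels can be compared between genes only per length, so mean normalized counts over the 8 libraries were divided by gene length in kilobases. On that scale Zfp36l2 stood at 1143, followed by Zfp821 at 223, Zfp710 at 188, Zfp335 at 93.4 and Zfp618 at 81.7. Zfp612 stood at 56.1, Zfp13 at 50.5, Zfp369 at 31.5 and Zfp882 at 16.2. Zfp456 stood at 9.83, Zfp677 at 8.30, Zfp354b at 2.38, Zfp831 at 2.33 and Zik1 at 2.30. Among neighbours in this order only Zfp36l2, with libraries from 766.2 to 1534, was clear of the next, Zfp821, with libraries from 187.7 to 259.2. The ranges over the 8 libraries of Zfp821 and Zfp710 overlapped, as did those of Zfp335 and Zfp618 and of Zfp354b, Zfp831 and Zik1.

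The zinc finger genes lay toward the lower end of the listed protein-coding genes by this measure. Their median level was 41.0 normalized counts per kilobase, against 89.7 over the 1097 listed protein-coding genes. Of the 14, 5 fell in the lowest of 4 equal bins of the listed protein-coding genes, 1 in the highest bin and 4 above the median. The 6 members with a recorded KRAB box had a median level of 19.9, from 2.30 for Zik1 to 56.1 for Zfp612. The 8 with none recorded had a median of 87.5, from 2.33 for Zfp831 to 1143 for Zfp36l2. The grouping rests on the table's record alone. These are descriptions of a handful of genes and were not tested.

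Gene length was close to that of the list. The median gene length was 3770.5 bases over the 14 members and 3663 bases over the listed protein-coding genes, with members from 2127 bases in Zfp821 to 9806 bases in Zfp831, and 7 of the 14 above the median. The 10 higher members had a median of 4099 bases and the 4 lower members 2990.5 bases. The listed protein-coding genes showed the same order, at 4564 bases for those higher and 2864 bases for those lower. The table's length lay within 10% of the summed exons of GENCODE M21 in 8 of the 14, such as Zik1 at 4199 bases in both. It was further off in 6, most of all in Zfp369 (5896 against 3424 bases) and Zfp612 (2301 against 4913 bases), so the levels per kilobase of those 6 are uncertain.

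**Figure D4:**
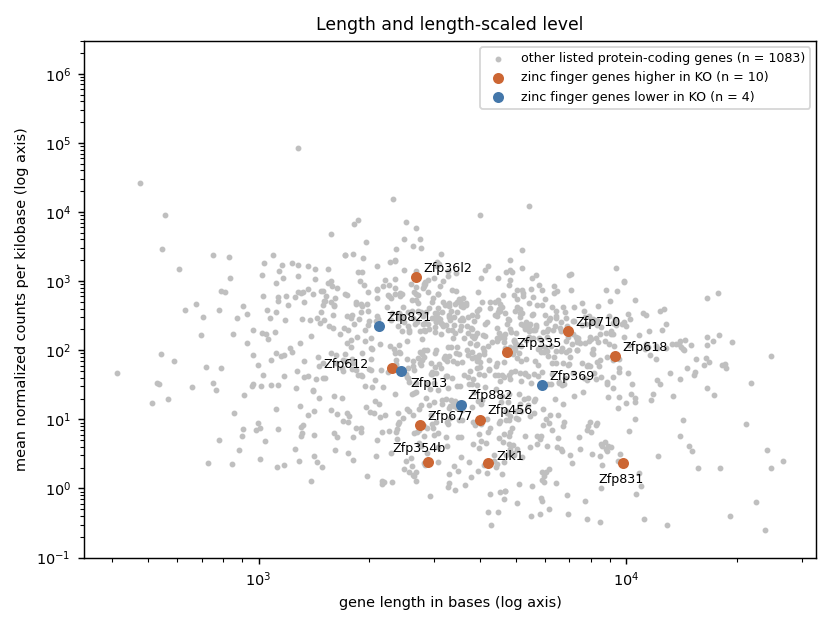
Mean normalized counts per kilobase against gene length (both log axes) for 1083 other listed protein-coding genes (grey) and the zinc finger genes higher (orange, n = 10) or lower (blue, n = 4) in KO. The zinc finger genes span lengths from 2127 to 9806 bases, and all but Zfp36l2, Zfp821, Zfp710 and Zfp335 lie below the median level of 89.7.

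Mouse KRAB zinc finger genes often sit in clusters, so positions were compared in the coordinates of the table. The nearest 2 members were Zfp821 and Zfp612, 389463 bases apart on chromosome 8, and they lay on opposite sides, lower and higher in KO. Zfp369, lower, and Zfp456, higher, were 2.40 Mb apart on chromosome 13. Zfp13, lower, and Zfp677, higher, were 2.67 Mb apart on chromosome 17. These pairs were noticed after the values were seen. Within 1 Mb, Zfp36l2, Zfp369, Zik1, Zfp831 and Zfp456 had no other listed gene. Zfp335 had 6, of which 3 were higher, and Zfp710 had 5, of which 4 were higher. Zfp882 had 3, of which 2 were higher, and Zfp618 had 3, of which 1 was higher. Zfp821 and Zfp13 had 2 each, all higher, and Zfp612 had 2, of which 1 was higher. Zfp677 had 1, higher, and Zfp354b had 1, lower. Over all listed genes 58.1% were higher.

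The microRNAs that the deletion targets are shown next because their seed (bases 2 to 8, in capitals) sets which transcripts they can bind. Both mature forms of the locus carry the same seed, by RefSeq on build GRCm38.p6, where miR-29a lies on chromosome 6 from 31062673 to 31062694 and miR-29b from 31063025 to 31063047, both on the minus strand.
mmu-miR-29a-3p: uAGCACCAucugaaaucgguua
mmu-miR-29b-3p: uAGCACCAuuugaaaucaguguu

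A match to that seed, TGGTGCT, was sought on the transcript strand in the longest GENCODE M21 3′ untranslated region of each member, and was present once in 5 of the 14. Of these, 4 were higher in KO (Zfp710, Zfp618, Zfp831 and Zfp456) and 1 was lower (Zfp821). The match occurs in 167 of 1029 listed protein-coding genes searched (16.2%), in 2751 of 20989 annotated ones (13.1%) and in 88 of 461 with the same name stems (19.1%). The sites are given with 11 bases on either side and the match in capitals.
Zfp710: tacgtgcttctTGGTGCTcttggaggccc
Zfp618: atggaagagggTGGTGCTttaagggtcca
Zfp831: tgtctatttttTGGTGCTggggatgtggc
Zfp456: ttgttcaaatcTGGTGCTcttgtctgttt
Zfp821: ccctcggggatTGGTGCTgcagtcactca

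None of the 5 sites is followed by an adenine, the base that extends a seed match to its strongest form. On GRCm38 the Zfp710 match lies in the last exon on chromosome 7 from 80092769 to 80092775, and the Zfp618 match in the last exon on chromosome 4 from 63138155 to 63138161. The Zfp831 match lies on chromosome 2 from 174709357 to 174709363, the Zfp456 match on chromosome 13 from 67364939 to 67364945 and the Zfp821 match on chromosome 8 from 109724666 to 109724672. The regions searched differed in length, with a median of 2554 bases over the 10 higher members and 293.5 bases over the 4 lower ones. Over all 14 members the median was 1589 bases. It was 1120 bases over the listed protein-coding genes, 961 over annotated ones and 1446 over those with the same name stems. A longer region holds more matches to any 7 letters, and the shares above were not corrected for length. Zfp36l2, Zfp335, Zik1, Zfp354b, Zfp677, Zfp612, Zfp369, Zfp882 and Zfp13 had no match in this window. A match is a run of letters and does not show that the microRNA acts there.

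**Figure D5:**
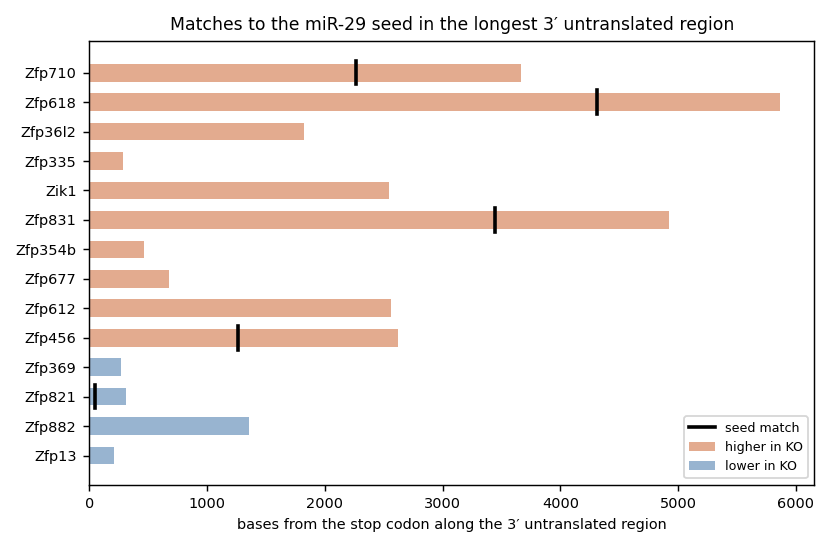
Length of the longest annotated 3′ untranslated region of each zinc finger gene in bases from the stop codon, orange for genes higher and blue for genes lower in KO; black marks are matches to the miR-29 seed. The 5 matches lie at base 2265 of 3669 in Zfp710, 4310 of 5863 in Zfp618, 3445 of 4920 in Zfp831, 1264 of 2625 in Zfp456 and 48 of 314 in Zfp821.

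Corepressor partners of KRAB and BTB zinc finger proteins were counted whole. Of 24 corepressor and heterochromatin partners of KRAB proteins 2 were listed, both lower in KO, and Trim28 and Setdb1 were not. Of all genes behind the authors' adjustment 7.06% were listed, so 2 of 24 is near that share. The histone deacetylase Hdac2 stood at 2716 ± 228 normalized counts in WT and 2029 ± 354 in KO (SD, n = 4 each). The heterochromatin protein Cbx3 stood at 1571 ± 571 in WT and 1086.1 ± 98.9 in KO. The groups did not overlap in either, as in 54.0% of all listed genes with a mean of at least 300 normalized counts. No gene with a symbol beginning with Zbtb was listed, but the table's family column assigns 6 listed genes to its ZBTB class. All 6 were higher in KO, beside 58.1% of all listed genes, and whether these 6 carry zinc fingers was not checked. Of 17 partners of BTB zinc finger proteins 4 were listed, with Ncor1, Rcor1 and Hdac4 higher and Hdac3 lower. None of the 6 listed partners passed an adjusted p of 0.05 by DESeq2 in the authors' deposited table, where their log2 fold changes ran from -0.53 for Cbx3 to 0.67 for Rcor1.

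Zinc finger factors outside the name rule were counted from the table and from fixed lists. The table's own family column assigns 25 genes to the C2H2 class, of which 11 are members and 14 are not. Of those 14, 11 were higher and 3 lower in KO, where 58.1% of all listed genes were higher, and 8 carry no symbol. Those with a symbol were Rreb1, Tshz1, Klf5, Klf4 and AI854703, all higher, and Klf11, lower. Klf5, a factor of proliferating crypt cells, had 3322, 3525, 4244 and 1834 normalized counts in WT and 5644, 4436, 5363 and 4308 in KO, with no overlap between groups. Klf4, a factor of differentiating epithelium, stood at 18058 in KO replicate 4 and between 1037 and 4627 in the other 7 libraries. Over a wider list of 81 C2H2 factors 6 were listed, 5 higher and 1 lower, of which only Ikzf3 is not named above. Over 26 nuclear receptor, GATA and other zinc finger genes 6 were listed, all higher. The listed share over all genes behind the authors' adjustment was 7.06%. None of the listed genes named or counted in this paragraph passed an adjusted p of 0.05 by DESeq2 in the authors' deposited table.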

How the data were processed

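Total RNA of colon tumours was extracted with TRIzol and sequenced from a strand-marking kit, as the labels' protocols state. HISAT2, DESeq2 and the human build GRCh38 are named in the submitters' processing notes, but gene identifiers belong to the mouse C57BL/6NJ annotation. Coordinates are those of the table. No source used here says whether counting used strand. The authors deposited a normalized signal per library (counts divided by size factors), group means, a log2 fold change, and p-values, per the file headers. Whole reads were recovered: 100% of values in each library fell within 0.01 read of a whole number. The members and lists were chosen with earlier results of these data known.

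The design called for the deposited contrast, since all listed genes have an unadjusted p below 0.05. Alternatives refitted all 1428 genes with limma 3.58.1 (log2 of value plus 1 or 0.1), DESeq2 1.42.0 and the quasi-likelihood test of edgeR 4.0.16 in R 4.3.3, adjusted by Benjamini-Hochberg over 19985 genes; their spread comes from selected genes. Values in every library are given for members with separate groups and a mean of at least 50, the 5 smallest p-values per direction and the most abundant per name stem; values printed beyond that (Zfp354b) and single libraries of other members were chosen after their values were seen. Zinc finger genes outside the lists were named by the table's family column. Proteins were translated from the longest GENCODE M21 coding sequence with Biopython 1.88.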

Additional observations from a re-analysis of the deposited data

How the results depend on the processing

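All 14 zinc finger genes kept their direction in every setting run, except that Zik1 and Zfp354b drop out with a minimum mean of 10 normalized counts, which leaves 8 higher and 4 lower; none passed an adjusted p of 0.05 in any of them. Adjusted p-values apart, the number below an unadjusted p of 0.05 with the deposited sign, 14 in the authors' deposited table, was 9 with edgeR (77.9% of all listed genes), 9 and 8 with limma at pseudocounts of 1 and 0.1 (71.9% and 68.9%), and 7 with the minimum mean of 10 (75.4%). It was 4 with TMM and 4 with median-of-ratios scaling, 28.6% of the members beside 62.3% and 62.5% of all listed genes. Both scalings left Zfp710, which was higher in KO, and Zfp369, Zfp821 and Zfp13, which were lower. All other higher members, and Zfp882, were no longer below 0.05. The number ran from 3 (without WT replicate 4) to 8 when single libraries were left out, beside 45.0% to 64.3% of all listed genes. TMM and median-of-ratios scaling, computed on the listed genes alone, moved the median log2 fold change of all listed genes by -0.16 and -0.17. The number with separate groups, 5, became 2 with TMM and 3 with median-of-ratios scaling. Without single libraries it ran from 5 to 9, where it could not fall, because leaving out a library cannot undo a separation. With the replicate number as a block, edgeR left 6 members (42.9%) and 39.1% of all listed genes below an unadjusted p of 0.05; no label pairs equal numbers across groups, and the correlations of their deviations ran from -0.24 to 0.054. The median gene length of the higher members was 4371 bases with the minimum mean of 10 and 3999 bases for Zfp symbols alone. The median level was 53.3, 50.5 and, with GENCODE exon lengths (chosen after seeing the data), 38.4 normalized counts per kilobase. Depth limits Zik1 and Zfp354b most, with 12 and 11 WT reads; the cause of the other shifts was not tested.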
